A study of Mus musculus with 42 samples.

Results

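The 8 genes followed here belong to the germline and meiosis programme, and were measured while mouse embryonic stem cells (ESCs) were differentiated to anterior definitive endoderm (ADE). They were Dazl, Ddx4, Mael and Asz1, which act in germ cell RNA control, Sycp1 and Sycp3, which build the synaptonemal complex, Tex101, a surface protein of germ cells, and Slc25a31, a mitochondrial ADP/ATP carrier of the testis. They were taken by name through the RefSeq accession of their probe, 8 of 21308 genes on the array, and each is represented by 1 such probe.

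All 14 groups came from 1 dual reporter mESC line with GFP knocked in to Gsc and RedStar knocked in to Hhex. Untreated groups were ESCs grown with LIF, unsorted d2 cells, and 9 sorted populations: d3 and d4 cells without (G-) or with (G+) GSC-GFP, d5 G-, Glow and Ghigh cells, and d6 GSC-GFP-positive cells without (G+H-) or with (G+H+) HHEX-RedStar. The 3 remaining groups were d6 cultures for which the labels name no sort: Control received DMSO before and during differentiation, ADE_EPZ received 2.5 µM EPZ6438, an inhibitor of the PRC2 enzyme EZH2, during differentiation and DMSO before, and ES_EPZ received EPZ6438 before and DMSO during. Each group had 3 arrays from independent experiments, so the values describe 1 reporter line, and every expression value is a log2 intensity after quantile normalisation.

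Germ cells carry a set of genes that most somatic tissues keep silent. Their products pair and recombine chromosomes in meiosis, guard the genome against transposons through piRNAs, or control RNA in the dense cytoplasmic material called nuage. Several such genes are transcribed in cultured pluripotent cells too, and in somatic lineages their CpG-rich promoters are known to be held silent by DNA methylation and by a PRC1 complex that contains E2F6 and the E-box binding proteins MGA and MAX.

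Promoters of the 4 members that fell in at least 1 population are shown because these genes shared a direction of change. All 8 members matched the RefSeq promoter table of build GRCm38.p6, which holds 250 bases before and 50 after each start site. Capitals mark the E2F-type word TCCCGC, which reads GCGGGA on the other strand, and the E-box word CACGTG, searched on both strands, and the printed runs stop at the start site. They lie at chr17:50293621-50293870 on the minus strand (Dazl), chr13:112652311-112652560 on the minus strand (Ddx4), chr10:88459337-88459586 on the plus strand (Sycp3) and chr1:166238745-166238994 on the minus strand (Mael).
Dazl: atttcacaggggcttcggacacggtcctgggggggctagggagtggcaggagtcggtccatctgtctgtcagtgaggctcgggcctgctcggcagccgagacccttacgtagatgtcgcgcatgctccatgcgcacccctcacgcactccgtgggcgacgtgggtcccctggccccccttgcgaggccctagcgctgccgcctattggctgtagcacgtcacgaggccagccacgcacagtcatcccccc
Ddx4: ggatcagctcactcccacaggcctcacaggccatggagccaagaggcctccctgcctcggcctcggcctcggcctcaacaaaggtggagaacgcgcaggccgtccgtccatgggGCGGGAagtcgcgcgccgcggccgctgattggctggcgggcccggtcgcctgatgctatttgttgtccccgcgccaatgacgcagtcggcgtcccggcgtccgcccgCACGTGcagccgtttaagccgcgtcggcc
Sycp3: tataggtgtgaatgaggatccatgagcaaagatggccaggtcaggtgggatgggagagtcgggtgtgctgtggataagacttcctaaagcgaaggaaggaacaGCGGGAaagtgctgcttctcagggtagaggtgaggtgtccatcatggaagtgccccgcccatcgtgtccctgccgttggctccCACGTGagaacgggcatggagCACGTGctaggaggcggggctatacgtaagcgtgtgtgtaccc
Mael: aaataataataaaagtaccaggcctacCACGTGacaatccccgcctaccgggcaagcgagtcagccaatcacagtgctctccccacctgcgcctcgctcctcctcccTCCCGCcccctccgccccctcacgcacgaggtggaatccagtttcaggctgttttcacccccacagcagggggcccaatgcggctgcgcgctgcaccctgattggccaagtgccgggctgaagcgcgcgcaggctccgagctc

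In the window of 300 bases, the E2F-type word occurred at 5 of 8 members and in 20% of all 32851 promoters, and the E-box word at 5 of 8 members and in 7.15% of all promoters. Both words were present at Ddx4, Sycp1, Sycp3, Mael and Slc25a31. Counted from the start site by their first base, the Sycp3 promoter held 2 E-box words at -64 and -43, and the Ddx4 promoter held 1 at -29. The annotated span of Ddx4, on the minus strand, reaches 112652633, so its printed run lies inside the gene span. Its positions count from the start site of the promoter table, downstream of that end. Mael had another E2F-type word at 12 after the start site, beyond the printed run. Neither word was found at Dazl, Asz1 or Tex101. The windows held between 15 CpGs (Sycp3) and 38 CpGs (Ddx4), against a median of 7 over all promoters.

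The scanner software marked 24459 to 40398 probes on each array as well above background. The labels were checked against 5 markers for each cell type. The pluripotency markers Pou5f1, Nanog, Zfp42, Esrrb and Klf2 averaged 13.01 to 13.82 on the ESC arrays and 7.20 to 7.35 in d6 G+H- cells, and the definitive endoderm markers Sox17, Foxa2, Hhex, Cer1 and Cxcr4 averaged 5.45 to 5.57 and 12.62 to 12.98 on the same arrays. Of 7 spermatid markers, 2 to 4 were well above background on all arrays of a group, and their mean lay between 5.31 and 5.83 on every array. The mean of 7 primordial germ cell markers was 9.40 to 10.14 in ESCs and 8.17 to 8.65 in the d6 populations. Areas of deviating signal held 3799 spots on 6 arrays, 2537 of them on d3 G- replicate 1 and 1208 on Control replicate 1. On d3 G- replicate 1, 427 spots lay more than 2 below the other replicates of the group on the log2 scale, against 8 and 12 spots on the other arrays of the group. The Sycp3 and Mael spots of that array lay among dim neighbours (median of the nearest 100 spots -0.70 and -0.86). They were the 2 member spots in such an area on any array. Differences of d3 G- cells from ESCs and from d3 G+ cells are given with and without them. Because all groups share 1 estimate of spread, the spots also entered every other SE, interval and p value of Sycp3 and Mael. Those are given with the spots unless stated, as are fits with any other array left out.

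Ddx4, an RNA helicase that marks germ cells, was well above background in 12 of 14 groups on all arrays. It read 8.82, 9.55 and 8.88 in ESCs and 9.60, 9.88 and 9.76 at d2. The G- populations read 9.65, 9.37 and 9.27 at d3, 8.98, 9.05 and 9.17 at d4, and 7.23, 8.47 and 8.06 at d5. ESC, d2, d3 G- and d4 G- levels lay close together, and d5 G- cells were below all of them on every array. GSC-GFP-positive cells read 8.80, 8.31 and 8.10 in d3 G+, 7.07, 8.11 and 7.41 in d4 G+, 6.09, 6.54 and 6.46 in d5 Glow, and 5.95, 6.47 and 6.71 in d5 Ghigh cells. At d6 the values were 5.37, 5.02 and 5.64 in G+H- cells, with 1 array well above background, and 6.20, 5.46 and 6.58 in G+H+ cells.

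Mael, a piRNA pathway protein that represses transposons, had group means that spanned 5.09. It read 10.29, 9.90 and 8.87 in ESCs, 9.99, 10.01 and 9.64 at d2, and 8.09, 7.99 and 7.96 in d4 G- cells. In d3 G- cells it read 6.10, 8.85 and 8.77, the first on the array with the dim area, and without that value the mean was 8.81. The ESC and d4 G- arrays did not overlap. GSC-GFP-positive cells read 7.59, 6.09 and 6.41 at d3 and 6.68, 6.13 and 5.38 at d4. In d5 Ghigh cells (4.53, 5.11 and 4.73) and d6 G+H- cells (5.01, 4.95 and 4.76) no array was well above background, whereas d6 G+H+ cells read 5.66, 5.32 and 5.28 with 2 arrays above it. The d5 G- population, at 6.30, 7.38 and 6.59, stayed above d5 Glow cells at 5.00, 5.36 and 5.15.

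Sycp3, a component of the lateral elements of the synaptonemal complex, was well above background on all 42 arrays. ESCs read 11.54, 10.75 and 11.81 and d2 cells 11.35, 11.43 and 11.38. The G- populations read 6.35, 10.21 and 10.04 at d3 (the first on the array with the dim area), 9.65, 9.66 and 9.89 at d4, and 8.96, 9.68 and 9.46 at d5. ESC and d2 arrays overlapped each other and lay above every array of all later populations. GSC-GFP-positive cells read 8.90, 9.13 and 9.28 at d3, 8.23, 8.88 and 8.63 at d4, 8.14, 8.22 and 8.12 in d5 Glow, and 7.95, 7.93 and 7.58 in d5 Ghigh cells. The lowest group was d6 G+H- at 7.29, 6.31 and 6.97, and d6 G+H+ cells read 7.82, 7.13 and 7.84.

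Dazl, an RNA-binding protein needed for germ cell development, was measurable at the start of differentiation. It read 5.86, 5.99 and 6.08 in ESCs, 6.39, 6.61 and 6.37 at d2 and 5.86, 6.34 and 5.89 in d3 G- cells, with every one of these arrays well above background. In d4 G- cells it read 5.09, 5.12 and 5.44, with 1 array above background, and in the 10 remaining groups no array was. The ESC and d4 G- arrays did not overlap, and the means of the 10 remaining groups lay below 5.22, the d4 G- mean.

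Sycp1, the transverse filament protein of the synaptonemal complex, was well above background on all arrays of ESCs (6.55, 5.99 and 5.49), d2 (6.11, 6.48 and 6.02) and d3 G- cells (5.67, 5.96 and 5.36) alone. No neighbours in its order of group means were separated on every array. Tex101 ranged over group means by 0.98 and read 6.03, 5.69 and 5.76 in ESCs, and 5.39, 4.85 and 5.20 in d6 G+H- cells. Slc25a31 read 5.31, 5.35 and 5.32 in ESCs with 2 arrays above background and in no group were all 3 above it. Asz1, a nuage scaffold protein of the piRNA pathway, was not well above background on any array, between 3.85 and 4.97.

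**Figure D1:**
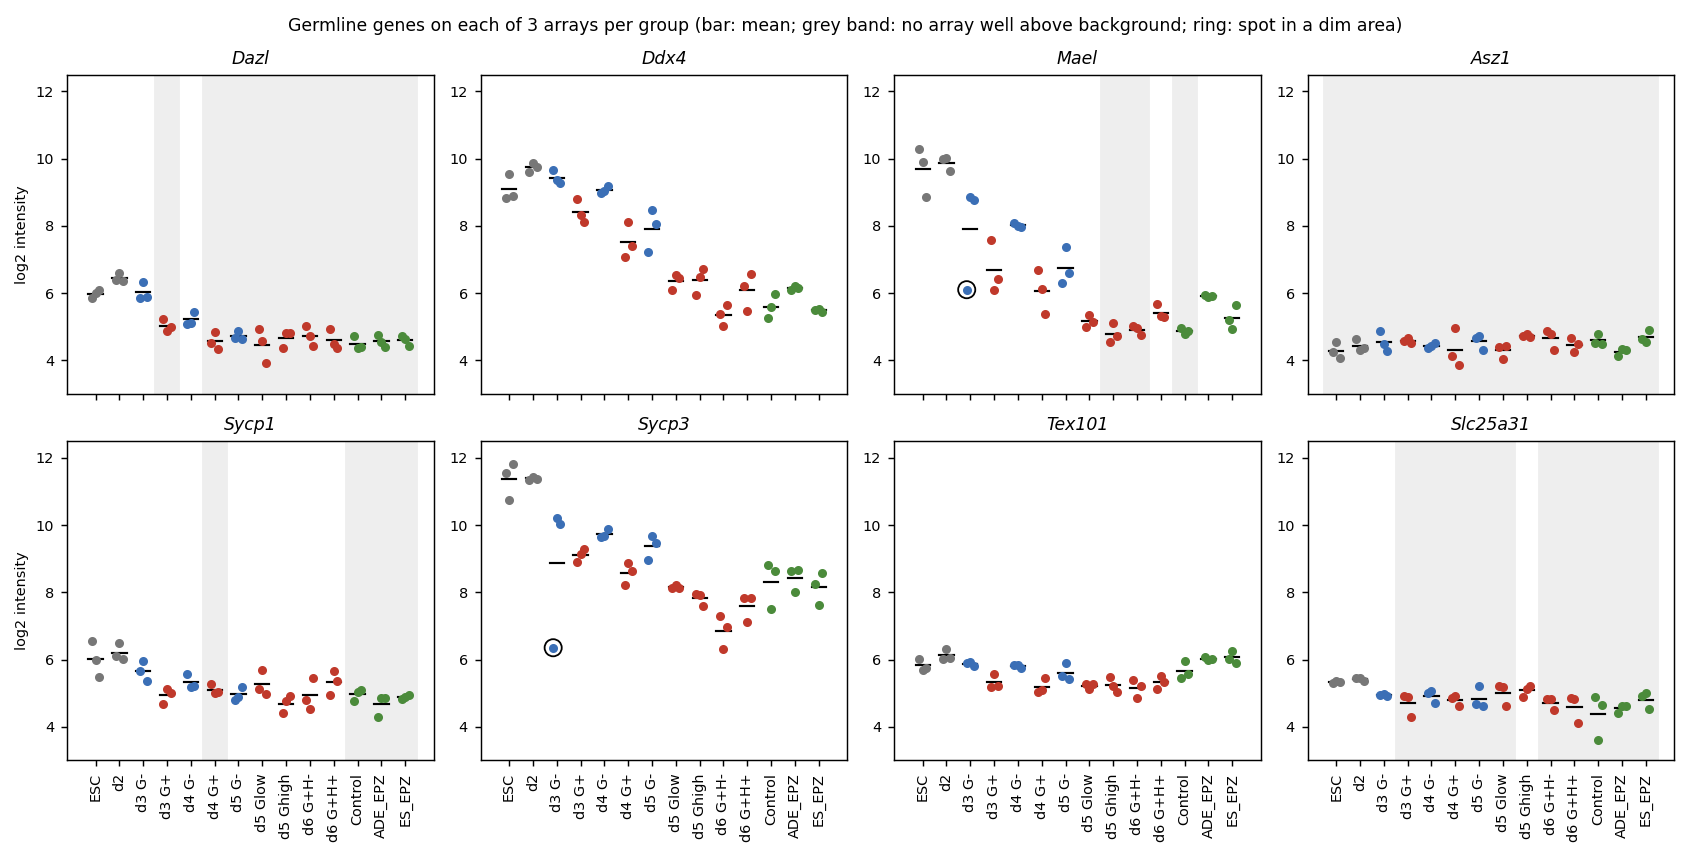
Log2 intensity of the 8 members (y axis) on each of 3 arrays in the 14 groups (x axis), with points for arrays, a bar for the group mean, grey bands where no array was well above background, and rings on the 2 spots of d3 G- replicate 1 in a dim area. Point colours separate ESC and d2 (grey), G- (blue), other sorted populations (red) and EPZ6438 series (green). Ddx4, Sycp3 and Mael were lower in the d5 Glow, d5 Ghigh and d6 populations than in ESC and d2 cells on every array, and Asz1 has a grey band throughout.

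Ordered by group mean, d2 was highest for 7 of the 8 members, and the exception was Asz1. The d2 arrays overlapped those of the next group for Ddx4, Sycp1, Sycp3, Mael and Tex101. The share of all genes with their highest mean at d2 was not computed. Of 13 neighbouring pairs in each order, arrays of the neighbours overlapped in 11 for Ddx4 and Mael and in 12 for Sycp3. The separated neighbours were d4 G- above d3 G+ and d4 G+ above d5 Ghigh for Ddx4, ESC above d4 G- for Sycp3, and ESC above d4 G- and ADE_EPZ above d6 G+H+ for Mael. For Dazl they were d2 above d3 G- and ESC above d4 G-. The orders of Sycp3 and Mael, and their counts of overlapping pairs, used d3 G- means that include the spots in the dim area. Without these spots d3 G- read 10.04 and 10.21 for Sycp3, and 8.77 and 8.85 for Mael. These values lay below all ESC arrays and above all d4 G- arrays, so ESC and d4 G- would not be neighbours.

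Each population was then compared with ESCs, the starting cells. A gene was called with a limma adjusted p of at most 0.01 and a log2 fold change of at least 1.5 in size, with adjustment over all 55681 probes. Every call of a member was a fall, and Ddx4, Sycp3, Mael and Dazl were the 4 members called. In bulk RNA, fewer cells that express a gene and less RNA per cell cannot be told apart. Comparisons with ESCs share the same 3 ESC arrays.

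At d2 no member was called, against 1.35% of all genes called lower and 0.357% called higher. There, 2 of 8 members had an unadjusted limma p under 0.05, against 22.7% of all genes. Those were Ddx4 and Dazl, whose d2 arrays all lay above the ESC arrays (log2 fold change 0.66, SE 0.28, limma adjusted p = 0.203, and 0.48, SE 0.20, limma adjusted p = 0.187). In d3 G- cells 2 of 8 members fell, Sycp3 (-2.50, SE 0.53) and Mael (-1.78, SE 0.44), against 1.29% of all genes. Without the spots in the dim area 0 of 8 were called: Sycp3 differed by -1.24 (SE 0.33, limma adjusted p = 0.0116) and Mael by -0.87 (SE 0.36, limma adjusted p = 0.142). In d3 G+ cells Sycp3 (-2.27) and Mael (-2.99) fell, 2 of 8 members against 3.69% of all genes called lower. The Sycp3 call was lost without ESC replicate 1 (-2.18) or ESC replicate 3 (-2.04). With all arrays but without the spots in the dim area, its SE in d3 G+ cells was 0.29 (limma adjusted p = 3.92e-07).

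In d4 G- cells no member was called, against 1.74% of all genes called lower and 1.48% called higher. There, 4 of 8 members had an unadjusted limma p under 0.05, against 27.9% of all genes. Mael differed by -1.67 (SE 0.44, limma adjusted p = 0.0105) and Sycp3 by -1.63 (SE 0.53, limma adjusted p = 0.0417). The d3 G- spots in the dim area entered the shared estimate of spread, and without them both were called in d4 G- cells (SE 0.32 and 0.29). In d4 G+ cells 3 of 8 members fell, against 4.36% of all genes: Mael (-3.62, SE 0.44), Sycp3 (-2.79, SE 0.53) and Ddx4 (-1.55, SE 0.28). The Ddx4 call was lost without ESC replicate 2 (-1.32), d4 G+ replicate 1 (-1.32) or d4 G+ replicate 3 (-1.49), and with a normexp offset of 50 (-1.36). The d5 G- population had 2 of 8 lower, Mael 7.6-fold and Sycp3 3.99-fold, against 2.18% of all genes. The Sycp3 call was kept in 1 of 6 fits with an array left out, and was lost without ESC replicate 1 (-1.91), ESC replicate 3 (-1.78) or d5 G- replicate 1 (-1.79), 2 (-2.16) or 3 (-2.05). These fits included the spots in the dim area. With all arrays the limma adjusted p was 0.00784 with the spots (SE 0.53) and 5.71e-06 without them (SE 0.29).

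In d5 Glow cells 4 of 8 members fell, against 4.22% of all genes. The differences were -4.52 for Mael (SE 0.44), -3.21 for Sycp3 (SE 0.53), and -2.72 for Ddx4 (SE 0.28). For Dazl the 95% interval was -1.91 to -1.09 (limma adjusted p = 4.32e-07). The fall of Dazl was at least 2-fold, since no d5 Glow array was well above background. In the other d5 and d6 populations, where no array was well above background either, Dazl was not called, and was lower by at least 2.2-fold in d5 G-, 2.48-fold in d5 Ghigh, and 2.09-fold and 2.03-fold at d6 without and with HHEX-RedStar, with limma adjusted p values of at most 1.74e-05. The d5 Glow call was lost without ESC replicate 2 (-1.49), ESC replicate 3 (-1.45) or d5 Glow replicate 3 (-1.23), and with a normexp offset of 50 (-0.74). In d5 Ghigh cells Mael, Sycp3 and Ddx4 fell, 3 of 8 against 4.55% of all genes, and Mael (-4.89) was lower by at least 29.4-fold. These bounds hold for the deposited background correction: with the offset of 50 Dazl differed by -0.65 to -0.74 in the d5 and d6 populations, and Mael by -3.69 in the d5 Ghigh population and by -3.64 at d6 without HHEX-RedStar.

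At d6, Sycp3, Mael and Ddx4 fell in both populations, 3 of 8 members in each. In the HHEX-RedStar-negative cells, where 5.10% of all genes were called lower, Mael differed by -4.78 (at least 25.8-fold lower), Sycp3 by -4.51 (limma adjusted p = 2.20e-08) and Ddx4 by -3.74 (limma adjusted p = 1.33e-12). In the HHEX-RedStar-positive cells, where 5.32% of all genes were called lower, Mael fell 19.3-fold, Sycp3 13.7-fold and Ddx4 8.02-fold. The median over all 8 members was -1.17 and -1.06 in these populations, beside a median of -0.00 over all genes. Within the slides that held both groups, Ddx4 differed by -3.80 and -3.24, Sycp3 by -5.23 and -4.84 and Mael by -5.34 and -4.11 between the HHEX-RedStar-negative and ESC arrays.

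The remaining members were not called in any population. Sycp1 had a limma adjusted p of at most 0.01 in d3 G+, d4 G+, d5 G-, d5 Ghigh and d6 G+H- cells with differences of -0.91 to -1.32, under the fold change threshold. Tex101 passed the p threshold in d4 G+, d5 Glow, d5 Ghigh and d6 G+H- cells with differences of -0.58 to -0.68. Slc25a31 was lower in d6 G+H+ cells by at least 1.3-fold (limma adjusted p = 0.0171), with no array there well above background. Asz1 gave no fold, as both sides were below background in every comparison.

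**Figure D2:**
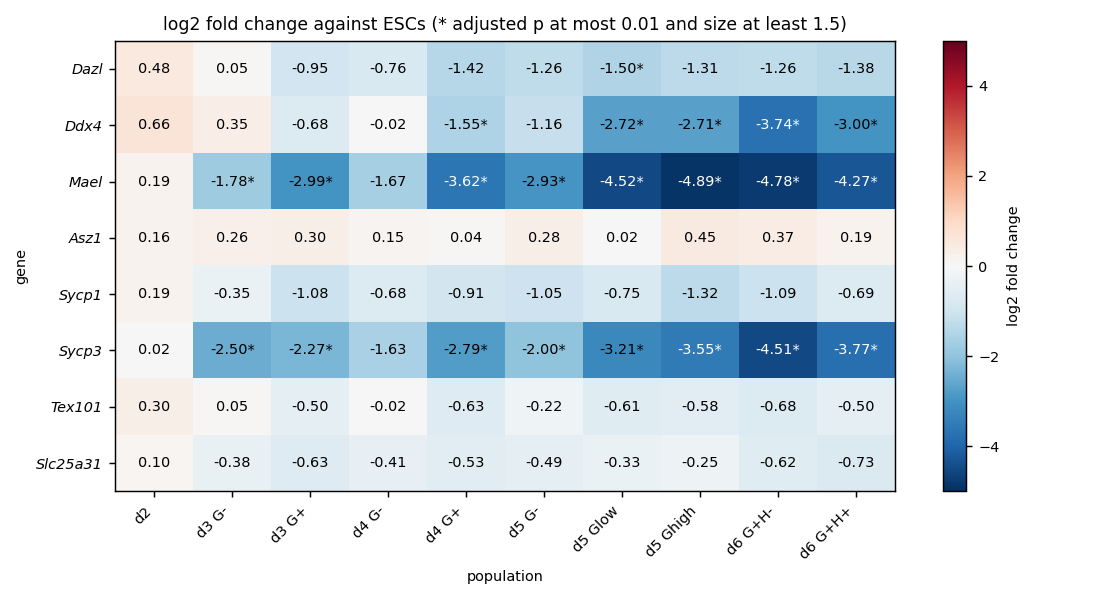
Log2 fold change of each member (rows) in each population (columns) against ESCs, with colour for the same value and an asterisk for a limma adjusted p of at most 0.01 and a size of at least 1.5. Falls of Mael, Sycp3 and Ddx4 reach -4.89, -4.51 and -3.74, and the d3 G- values of Sycp3 and Mael include the spots in a dim area.

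GSC-GFP-positive cells were compared with G- cells of the same day. At d3 no member was called, against 1.10% of all genes called lower and 0.699% called higher in G+ cells. There, 5 of 8 members had an unadjusted limma p under 0.05, against 19% of all genes. Dazl passed the p threshold (limma adjusted p = 0.0012), with at least 1.89-fold less in G+ cells, and Ddx4 differed by -1.03 (SE 0.28, limma adjusted p = 0.0267). Sycp3 differed by 0.24 (SE 0.53) and Mael by -1.21 (SE 0.44). Without the spots in the dim area these became -1.02 for Sycp3 (SE 0.33, limma adjusted p = 0.0764) and -2.11 for Mael (SE 0.36, limma adjusted p = 0.000153), so that Mael was called and 1 of 8 members was lower in d3 G+ cells.

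At d4 Mael and Ddx4 were lower in G+ cells, 2 of 8 members against 1.45% of all genes. Mael differed by -1.95 (SE 0.44, limma adjusted p = 0.00498) and Ddx4 by -1.54 (SE 0.28, limma adjusted p = 0.000469), each in 9 of 9 pairs of arrays. Within slides, Mael differed by -1.96 and -1.31 and Ddx4 by -0.87 and -1.98. Sycp3 also did not overlap between the groups, with a difference of -1.16 (SE 0.53) that did not pass (limma adjusted p = 0.307). Without the spots in the dim area it was not called either (SE 0.29, limma adjusted p = 0.0135). For Mael that fit gave an SE of 0.32 and a limma adjusted p of 0.000114. With the spots in place, leaving out any of the 6 arrays ended at least 1 of the calls of Mael and Ddx4. Both were lost without d4 G- replicate 3 (Ddx4 -1.48, Mael -1.98) or d4 G+ replicate 3 (Ddx4 -1.48, Mael -1.61), that of Ddx4 also without d4 G+ replicate 1 (-1.31), and that of Mael without d4 G- replicate 1 (-1.91), d4 G- replicate 2 (-1.96) or d4 G+ replicate 2 (-1.99).

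At d5, Glow and Ghigh cells together were set against G- cells, and again Ddx4 (-1.55, SE 0.24, limma adjusted p = 6.38e-05) and Mael (-1.78, SE 0.39, limma adjusted p = 0.00324) were lower, 2 of 8 members against 1.15% of all genes. All 18 pairs of arrays had this direction for both genes. Within 3 slides, Ddx4 differed by -0.76, -2.16 and -1.60 and Mael by -1.19, -2.21 and -1.45. Both calls were lost without d5 G- replicate 2 (Ddx4 -1.28, Mael -1.47) or d5 G- replicate 3 (-1.48 and -1.86), and that of Ddx4 also without d5 Glow replicate 1 (-1.48) or d5 Ghigh replicate 1 (-1.45). The change of the GSC-GFP-positive to G- difference between d3, d4 and d5 was tested as an interaction for each member, and none of these tests had a limma adjusted p of at most 0.01. These tests included the d3 G- spots in the dim area.

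Pluripotency markers moved in the same direction in these sorts: their mean was 10.72 to 11.03 in d4 G- and 8.19 to 9.03 in d4 G+ cells, and 9.83 to 10.66 in d5 G- against 6.89 to 8.42 in d5 Glow and Ghigh cells. All 5 of these markers were well above background in each of these groups. Their part in the difference of Ddx4 and Mael was not tested.

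**Figure D3:**
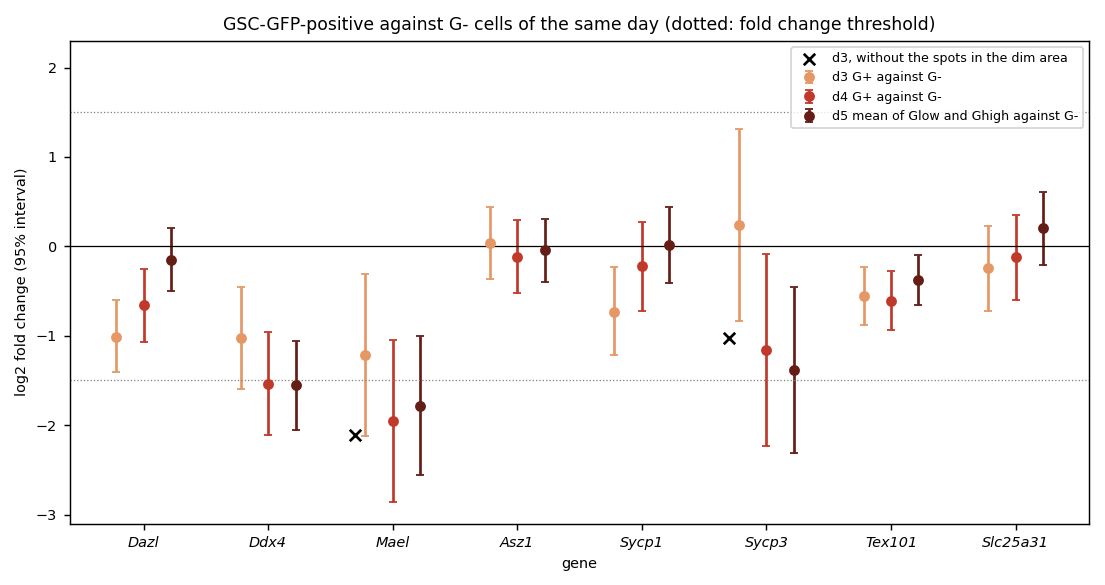
Log2 fold change (y axis) of GSC-GFP-positive against G- cells at d3, d4 and d5 for each member (x axis), with bars for the 95% interval of the limma fit, dotted lines at the fold change threshold and crosses for d3 values without the spots in a dim area. Ddx4 and Mael lie below -1.5 at d4 and d5, and without the dim spots Mael moves to -2.11 at d3.

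No member was called between the d6 populations, or between them and d5 Ghigh cells. This held for 0 of 8 members between d6 G+H+ and G+H- cells, where 0% of all genes were called, and the unadjusted limma p was under 0.05 for Ddx4, 1 of 8, against 5.98% of all genes. Ddx4 was 0.74 higher in G+H+ cells (SE 0.28, 95% interval 0.16 to 1.31, limma adjusted p = 0.912), and Sycp3 0.74 higher (SE 0.53, interval -0.33 to 1.81). The count of 1 of 8 and this Sycp3 interval include the spots in the dim area. Without the spots Sycp3 differed by the same 0.74, with an SE of 0.29 (limma adjusted p = 0.92). All 3 Mael values in G+H+ cells lay above those in G+H- cells, with a difference of 0.51 (SE 0.44, interval -0.39 to 1.42). Between arrays of the same replicate number, Ddx4 was higher by 0.83, 0.43 and 0.94, Sycp3 by 0.53, 0.82 and 0.87 and Mael by 0.64, 0.37 and 0.52. On the slide that held both populations, which carried G+H+ replicate 2 and G+H- replicate 1, Ddx4 differed by 0.09, Sycp3 by -0.16 and Mael by 0.30. Between d5 Ghigh cells and the mean of both d6 populations no member was called. Of all genes, 1.16% were called lower and 2.08% higher at d6. An unadjusted limma p under 0.05 was found for 3 of 8 members, against 32.8% of all genes. Ddx4 differed by -0.66 (SE 0.24, limma adjusted p = 0.0695), and Mael was well above background on 0 of 3 d5 Ghigh and 2 of 6 d6 arrays.

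The EPZ6438 series asked whether PRC2 inhibition changed expression in d6 cultures. No member passed the test in any comparison: 0 of 8 were called in ADE_EPZ against Control, where 2.75% of all genes changed in either direction, 0 of 8 in ES_EPZ against Control, where 0.422% changed, and 0 of 8 in ADE_EPZ against ES_EPZ, where 0.127% changed. An unadjusted limma p under 0.05 was found for 2 of 8 members, against 30.7% of all genes, for 1 against 18.7%, and for 2 against 13%.

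Mael differed most. It read 4.97, 4.79 and 4.86 in Control, with no array well above background, 5.93, 5.89 and 5.90 in ADE_EPZ, with every array above it, and 5.20, 4.92 and 5.64 in ES_EPZ, with 1 array above it. The ADE_EPZ arrays lay above all Control and ES_EPZ arrays. The difference from Control was 1.03 (SE 0.44, 95% interval 0.13 to 1.94, limma adjusted p = 0.161), 2.05-fold between the means, and 1.11, 1.07 and 0.92 within the 3 slides. With only the EPZ6438 series in the fit, its limma adjusted p was 0.00498, and with the spots in the dim area left out it was 0.0303, with the same difference of 1.03. Over the 10 alternatives that kept every array its limma adjusted p ran from 0.00221 to 0.431, and the difference was 0.55 with a normexp offset of 50 and 2.18 with 75th percentile scaling (limma adjusted p = 0.0267).

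Ddx4 read 5.25, 5.60 and 5.97 in Control, 6.10, 6.22 and 6.16 in ADE_EPZ and 5.50, 5.53 and 5.45 in ES_EPZ. ADE_EPZ arrays again lay above those of both other regimens, with a difference of 0.55 from Control (SE 0.28, limma adjusted p = 0.272). Tex101 read 5.46, 5.97 and 5.56 in Control, 6.08, 6.00 and 6.02 in ADE_EPZ and 6.01, 6.25 and 5.91 in ES_EPZ, differences of 0.37 and 0.40 (SE 0.16 each, limma adjusted p = 0.161 and 0.252). Sycp3 overlapped between all regimens, at 8.80, 7.50 and 8.62 in Control, 8.63, 8.01 and 8.66 in ADE_EPZ and 8.26, 7.63 and 8.56 in ES_EPZ. The interval of its ADE_EPZ difference ran from -0.95 to 1.19 (SE 0.53). Without the spots in the dim area the SE of this difference was 0.29. Dazl, Sycp1, Asz1 and Slc25a31 were not well above background on any array of the series. Pluripotency markers averaged 6.97 to 7.44 in Control, 8.06 to 8.41 in ADE_EPZ and 6.93 to 8.26 in ES_EPZ, and 7 primordial germ cell markers averaged 7.89 to 8.32, 8.63 to 8.72 and 8.26 to 8.47. Their part in the values of Mael and Ddx4 was not tested.

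**Figure D4:**
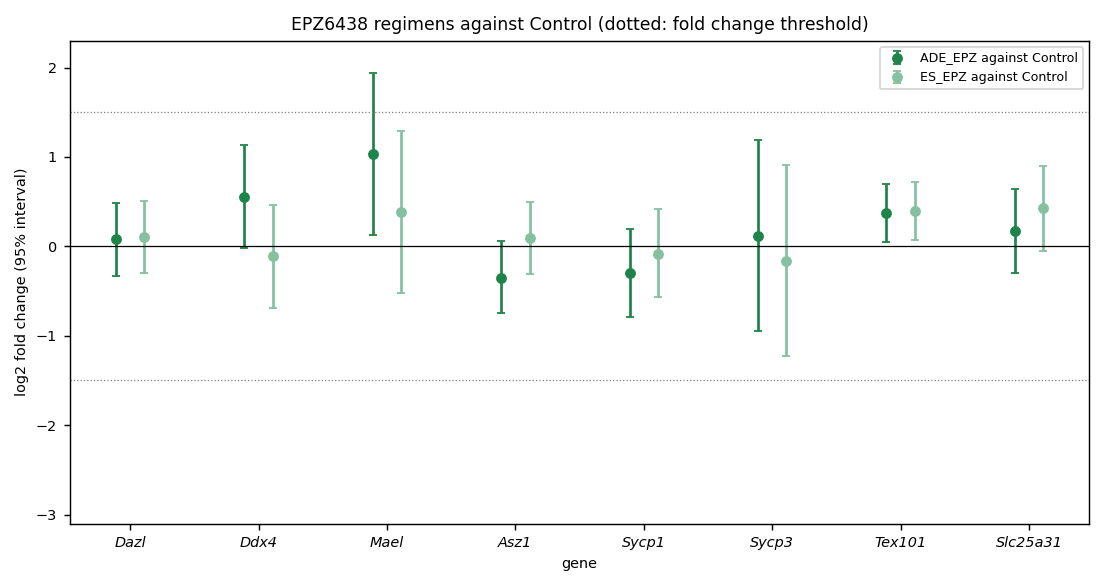
Log2 fold change (y axis) of the members (x axis) in ADE_EPZ and ES_EPZ against Control, with bars for the 95% interval of the limma fit over 3 arrays per group and dotted lines at the fold change threshold. No point reaches a threshold, and Mael in ADE_EPZ is highest at 1.03.

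Other genes of the germline programme were read from lists of the same kind. Of the meiotic chromosome list, 28 of 29 genes had a RefSeq probe and 23 were well above background on all arrays of a group. Against ESCs, the number called lower was 0 at d2, 1 in d3 G-, 6 in d3 G+, 2 in d4 G-, 8 in d4 G+, 4 in d5 G-, 7 in d5 Glow and 6 in d5 Ghigh cells. It was 7 and 5 at d6 without and with HHEX-RedStar. Of all genes, 1.35%, 1.29%, 3.69%, 1.74%, 4.36%, 2.18%, 4.22% and 4.55% were called lower up to d5, in the same order. At d6 the shares were 5.10% and 5.32%. Syce1, a central element protein of the synaptonemal complex, fell in d6 G+H+ cells by at least 28.6-fold and Stra8, the retinoic acid-induced gene of meiotic entry, by at least 10.8-fold. With a normexp offset of 50 these differences were -3.78 for Syce1 and -2.59 for Stra8, smaller than the bounds on the log2 scale. Syce3 fell too (-2.78), as did Tex11 by at least 2.98-fold. Stra8 fell by 3.47 in d3 G- cells, where Ddx4 and Dazl were not called. Prdm9, the methyltransferase that places recombination hotspots, rose by 1.60 and 1.67 in the d6 populations without and with HHEX-RedStar and is named after its values were seen. With the mean of all probes of a gene the G+H+ differences were 0.97 for Prdm9 and -1.25 for Tex11, under the threshold. The list median was -0.77 and -0.63 in these populations, beside -0.00 over all genes.

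The piRNA and nuage list, with 17 of 18 genes on the array, had members that moved both ways: 4 fell and 1 rose in d6 G+H- cells, where 5.10% of all genes fell and 5.08% rose, and 5 fell and none rose in d4 G+ cells, where 4.36% fell and 3.02% rose. Its median against ESCs was -0.35 and -0.32 in the d6 populations. In d6 G+H+ cells Tdrd12 fell by at least 29.6-fold (-3.89 on the log2 scale with a normexp offset of 50, a smaller fall than this bound), and Tex19.1 (-3.65) and Gtsf1 (-3.13) fell too, whereas Tdrd7 rose by 4.22, from 7.37 ± 0.64 to 11.59 ± 0.45 (SD, n = 3). Tdrd5 rose in d3 G- (2.15), d4 G- (2.28) and d5 G- cells (1.77). Tdrd12 and Tex19.1 were lower in G+ cells at d4 (-2.32 and -2.36), as Mael and Ddx4 were, and so was Tdrd5 (-1.73). After EPZ6438, 1 gene of all 5 lists (28, 17, 9, 23 and 23 genes on the array) was called, Tex19.1 in ADE_EPZ against Control. In that comparison 2.75% of all genes changed in either direction. Tex19.1, which limits transposon activity in germ and pluripotent cells, averaged 6.91 ± 0.44 in Control and 9.10 ± 0.25 in ADE_EPZ (SD, n = 3). The difference was 2.19 (SE 0.49, limma adjusted p = 0.00249). That call was lost without Control replicate 2 (2.03), Control replicate 3 (2.09) or ADE_EPZ replicate 1 (2.04).

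Of 9 genes of germ cell specification, Prdm14 (at least 20-fold, and -3.42 on the log2 scale with a normexp offset of 50), Dppa3 (-3.97) and Dnd1 (-3.76) fell in d6 G+H+ cells, 3 of 9 beside 5.32% of all genes, and the list median was -0.44. Kit rose there by 2.49, and so did Prdm1, named after its values were seen, by 2.28. Dppa3, Dnd1 and Prdm14 were lower in GSC-GFP-positive than G- cells at d4 (-3.38, -2.15 and -1.72) and at d5 (-3.02, -3.09 and -2.31). Of 23 spermatid and sperm genes, 12 were above background on all arrays of a group and 1 was called in any comparison: Rpl10l, a retrogene of the ribosomal protein Rpl10 whose probe was not checked against its parent, read 11.18 ± 0.88 in ESCs and 4.17 ± 0.44 in d6 G+H+ cells (SD, n = 3), a fall of at least 75-fold. With a normexp offset of 50 its difference was -5.38, a smaller fall than this bound. The list median was -0.05 there, where 5.32% of all genes fell.

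Repressors of germline genes and genes of DNA methylation were measured together as a list of 23, all above background in a group. The list includes Tet1 and Tet2, so its counts are not counts of repressors alone. In d6 G+H+ cells 2 of 23 fell and 2 rose against ESCs, beside 5.32% of all genes that fell and 5.77% that rose. Dnmt3l, the cofactor of de novo DNA methylation, and Tet1, a 5-methylcytosine dioxygenase, fell (-7.66 and -3.29), whereas Yaf2, a PRC1 subunit, rose by 1.84 and the DNA methyltransferase Dnmt3b by 1.62. Dnmt3l, Tet2 and Tet1 were the genes of this list lower in d3 G+, d4 and d5 populations, and E2f6, Mga, Max and Pcgf6 were not called in any comparison. The somatic relatives Slc25a4, Slc25a5 and Ddx3x were not called in any comparison either.

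**Figure D5:**
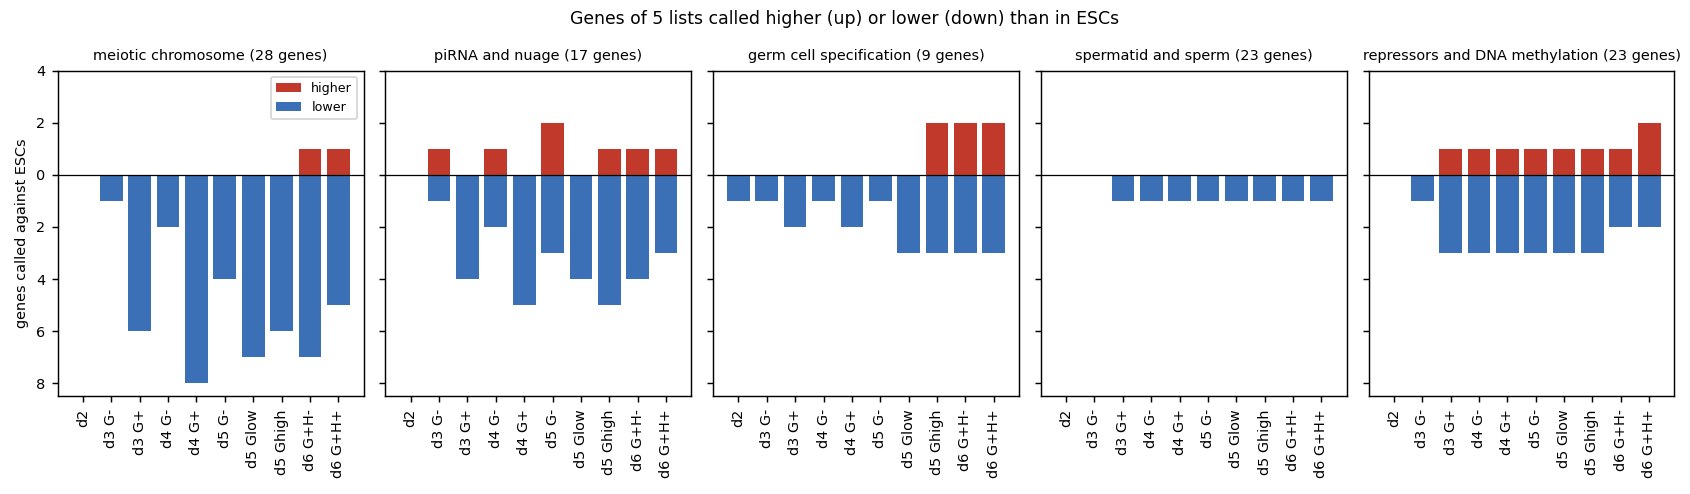
Number of genes of 5 lists (y axis) called higher (up, red) or lower (down, blue) in each population against ESCs (x axis), with the number of genes on the array in each title. The meiotic list reaches 8 genes lower in d4 G+ cells, where 4.36% of all genes were lower, and the spermatid list never exceeds 1.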

How the data were processed

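RNA was hybridised to 1-colour Agilent arrays, 42 in all, with 3 per group. The log2 intensity table deposited by the authors was used as the main values. It holds a value per spot after background correction in limma (normexp, offset 10) and quantile normalisation, and spots of a probe were averaged here. Recomputing it from the deposited scanner intensity columns gave a correlation of at least 0.999979 on every array. Genes were named through RefSeq accessions (21850 of 22201 matched), and each gene was read from its brightest probe over all arrays.

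Groups were fitted together with limma 3.58.1 in R 4.3.3 (lmFit, contrasts.fit, eBayes), with Benjamini-Hochberg adjustment over 55681 probes in each comparison. A call required an adjusted p of at most 0.01 and a log2 fold change of at least 1.5 in size. Where a probe was not well above background on any array of the dimmer group, a fold is given as at least the ratio of the bright mean to the higher of the dim value and the lowest signal well above background. Such a fold compares group means and does not allow for their sampling error. The number of arrays limits the precision. The p values rest on a spread between arrays of a group that was estimated over all 14 groups together. Each group had 3 experiments on 1 line. Other genes were named as called members of the gene lists, at most the 4 with the largest change per list and comparison, apart from Prdm1, Prdm9 and genes given without a call. The members and lists were chosen with earlier results of these data known.

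Alternatives were another normexp offset (50), scaling to the 75th percentile, a filter on dim probes, slide or replicate number as a block, the mean of all probes, fewer arrays in the fit, each array left out, and, chosen after seeing the data, spots in areas of deviating signal left out (100 nearest spots differing in median by over 0.5). Samples with the same replicate number deviated together in all 3 pairs in 7 of 16 pairs of groups (r between -0.06 and 0.67), d6 G+H+ and G+H- cells among them, and blocking on the number changed no call of a member. Neither the promoter table nor the arrays measure binding or methylation.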

Additional observations from a re-analysis of the deposited data

How the results depend on the processing

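All 26 called values of the members kept their direction under each of 10 alternatives. The dim probe filter, the replicate block and the fits on fewer arrays leave a log2 fold change as it was. So does the mean of all probes for a member, since each has 1 probe. In these alternatives the direction could not change, and a call could be lost only through its p value. Calls were kept for 26 with the values recomputed, the dim probe filter, the replicate block and the mean of all probes, 24 with 75th percentile scaling, 24 with the spots in areas of deviating signal left out, 23 with the slide block, 22 with arrays of the compared groups, 22 with arrays of the same series, and 20 with a normexp offset of 50. With the replicate block the numbers of calls were 22 against ESCs, 4 between sorted populations and 0 after EPZ6438, as without it. The 4 calls between sorted populations became 0 with the offset of 50 (0 at d4 and 0 at d5), 2 with arrays of the compared groups (1 and 1), 2 with arrays of the same series (1 and 1), and 2 to 4 with an array left out, and the slide block left 1 at d4. Leaving out an array gave 0 to 1 call between d4 G+ and G- cells and 0 to 2 at d5. In d3 G- against ESCs the 2 calls became 1 with 75th percentile scaling, 1 with the slide block, 0 with arrays of the compared groups, 1 with arrays of the same series, 0 without the spots in the dim area, and 0 to 2 with an array left out (0 without d3 G- replicate 1 or ESC replicate 1). In d4 G- against ESCs the count of 0 became 1 with recomputed values, the offset of 50, the dim probe filter or arrays of the compared groups, 2 without the spots in areas of deviating signal, and 0 to 1 with an array left out. Under 75th percentile scaling the counts were 6 in d6 G+H-, 5 in d5 Ghigh, 4 in d5 G- and 4 in d3 G+ cells against ESCs and 1 between d3 G+ and G- cells. The d3 G+ to G- count was also 1 without the spots in the dim area and 0 to 1 with an array left out. The d3 G+ count was 1 to 2 (1 without ESC replicate 1 or 3), and the d5 G- count 1 with arrays of the same series and 1 to 2 with an array left out (1 without ESC replicate 1 or 3 or any d5 G- array). The cause of these changes was not tested.

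The range of group means depended on the background correction. With the offset of 50 it was 1.05 for Dazl, 3.46 for Ddx4, 0.81 for Sycp1, 3.86 for Mael, 0.18 for Asz1, 0.54 for Tex101 and 0.45 for Slc25a31, and with 75th percentile scaling 4.40, 5.69, 3.07, 7.17, 1.19, 2.10 and 2.63. Signal over background limited Asz1 (0 of 42 arrays), Slc25a31 (7), Dazl (10) and Sycp1 (18). Of 177 called values of list genes, all kept their direction, and between 142 (offset 50) and 177 kept their call.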

Other observations

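The genes most like each member were read from the correlation of the 14 group means, over 5522 genes (5523 for Tex101) that were well above background in a group and spanned at least 1.5 in log2 intensity. The group means share 1 cell line and 1 normalisation, and the values are a description. The d3 G- means of Sycp3 and Mael include the spots in the dim area (8.87 and 7.91, and 10.12 and 8.81 without them). Correlations without these spots were not computed. Mael was most like Syce1, a synaptonemal complex gene (r = 0.987), and Ezhip, an inhibitor of PRC2 (r = 0.983). Ddx4 was most like Apod (r = 0.982) and Xylb (r = 0.981), and Sycp3 most like Gfer (r = 0.961) and Skap2 (r = 0.958). Dazl was most like Ldoc1 (r = 0.977), Sycp1 most like Stk31 (r = 0.953) and Dusp27 (r = 0.941), and Tex101 most like Jag2 (r = 0.88) and Gdf15 (r = 0.878). Among the members, the group means of Mael and Sycp3 had r = 0.937, Dazl and Mael r = 0.917, and Ddx4 and Mael r = 0.915, whereas Asz1, never well above background, had r between -0.414 and -0.143 with the others.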
